A study of Drosophila melanogaster with 2 samples.

Results

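Segmentation and axis patterning genes set up the body plan of the fly embryo, and 40 of them, out of 13968 protein-coding genes, were examined for binding of gfzf. They were chosen by name and role: 5 maternal regulators, 9 gap genes, 9 pair-rule genes, 3 segment polarity genes and 14 dorsoventral genes. The rule itself uses no measured value, although the list was drawn up with earlier results of these data known. The chromatin immunoprecipitation and sequencing (ChIP-seq) data came from a transgenic Drosophila melanogaster line that stably expresses gfzf with green fluorescent protein (GFP) at its C-terminus. Whole embryos of both sexes, 0 to 24 h old, were pooled, sonicated chromatin had a size range of 200 to 800 bp, and the tagged protein was precipitated with an anti-GFP antibody. There were 2 biological replicates in 1 group, and no other genotype, age or treatment was compared. The protein mapped is the tagged copy of 1 line, and its driving promoter is not given in the labels. All cell types and embryonic ages are mixed, so that a gene bound in few cells or for a short time and a gene weakly bound in many cannot be told apart.

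The deposited lists on the dm6 build were an optimal set of 5007 peak lines kept by the authors after a filter on the irreproducible discovery rate (IDR), and relaxed lists of 30000 lines each for the pooled reads, replicate 1 and replicate 2. Each line carries the authors' peak signal, whose scale is not stated, so signals are compared within a list only. The optimal set ran from 88.4 to 15685.2 with a median of 360.6. A gene was called bound when a summit of the optimal set lay within 250 bp of any of its transcription start sites (TSSs). In the pooled list 25289 lines (84.3%) had an interval of exactly 524 bp, and 705 lines (14.1%) of the optimal set had that width. The median signal of those optimal lines was 107.2, against 525.6 for optimal lines of other widths.

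In the embryo, maternal products laid down in the egg set the axes before the zygotic genome is active. Along the anterior-posterior axis, maternal regulators switch on gap genes, which position the stripes of pair-rule genes, which in turn place segment polarity genes. Along the dorsoventral axis, the ligand spz activates the receptor Toll on the ventral side. Toll signals through the adaptor tub and the kinase pll to remove the inhibitor cact from the Rel-family factor dl, and the opposite side is patterned by bone morphogenetic protein (BMP) ligands. The protein gfzf joins zinc fingers of the FLYWCH type to a domain of the glutathione S-transferase family and is known to act with M1BP, the factor that binds Motif 1 at promoters of broadly expressed fly genes.

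The sequences beside the 6 bound genes are shown first, and 4 of them carry an element of broadly expressed promoters. The stretches were placed differently from gene to gene, and like stretches of other genes were not searched. In the fixed window from −150 to 50 bp at 1 TSS per gene, used for the counts below, only tub and dl carry such an element. All are from the RefSeq copy of dm6 and are read 5′ to 3′ on the strand given. Capitals mark the Motif 1 core (GGTCACAC) in tub, the Motif 6 core (GGTATTTT) in pll and dl, and the DNA replication-related element (DRE, TATCGATA) in pnr. The stretches for cact and bcd, each 50 bases to either side of the summit, hold none of these elements. For all 5007 optimal summits, matches were counted within 100 bp, which is a different stretch. The Motif 1 core was found at 18.5% of these summits, the DRE at 12.4% and the Motif 6 core at 10.1%.
pll, chr3R:27253310-27253429, minus strand, between the TSSs of pll and TfIIA-L: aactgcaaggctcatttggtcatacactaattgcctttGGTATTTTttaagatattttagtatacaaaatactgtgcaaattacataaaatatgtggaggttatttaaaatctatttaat
tub, chr3R:4387642-4387741, plus strand, directly upstream of the TSS: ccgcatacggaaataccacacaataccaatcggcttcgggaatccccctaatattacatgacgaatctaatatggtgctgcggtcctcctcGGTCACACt
cact, chr2L:16325797-16325897, minus strand, in an intron: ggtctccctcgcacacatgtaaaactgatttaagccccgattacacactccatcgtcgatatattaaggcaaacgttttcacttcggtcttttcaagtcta
dl, chr2L:17450365-17450464, minus strand, directly upstream of the TSS: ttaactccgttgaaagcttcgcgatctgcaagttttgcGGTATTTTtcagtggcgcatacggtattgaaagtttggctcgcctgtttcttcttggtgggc
bcd, chr3R:6759636-6759736, minus strand, upstream and intergenic: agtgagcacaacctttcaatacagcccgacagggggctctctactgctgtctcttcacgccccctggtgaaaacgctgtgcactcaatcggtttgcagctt
pnr, chr3R:16025979-16026078, plus strand, directly upstream of the bound TSS: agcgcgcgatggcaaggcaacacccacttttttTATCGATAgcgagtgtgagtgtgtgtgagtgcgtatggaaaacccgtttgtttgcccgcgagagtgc

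The promoters of 4 unbound genes are shown next, as the 60 bases directly upstream of 1 TSS each. These 4 were picked from the unbound genes with the most kinds of the regulated-promoter elements counted below. They therefore do not stand for all unbound genes, and their difference from the bound genes follows from this choice. Shares over all 40 patterning genes are given below. Capitals mark a TATA box (TATAAA) in hb and gt, the heptamer CAGGTAG bound by zld in dpp, the same heptamer on the opposite strand in hb, and a GAGA element (GAGAGAG, here on the opposite strand) in btd.
hb, chr3R:8694601-8694660, minus strand: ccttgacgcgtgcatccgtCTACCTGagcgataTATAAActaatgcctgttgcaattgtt
gt, chrX:2428968-2429027, minus strand: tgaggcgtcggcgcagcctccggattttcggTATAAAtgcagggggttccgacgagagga
btd, chrX:9694126-9694185, plus strand: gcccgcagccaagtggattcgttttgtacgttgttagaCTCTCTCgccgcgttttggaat
dpp, chr2L:2451169-2451228, plus strand: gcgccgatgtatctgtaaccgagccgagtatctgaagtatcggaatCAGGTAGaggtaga

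Of the 40 patterning genes, 6 (15.0%) were bound in the optimal set, against 4609 of all 13968 genes (33.0%). The bound genes were pll, tub, cact and dl of the maternal Toll pathway, the maternal anterior determinant bcd, and pnr, a GATA factor gene of the dorsal ectoderm. No gap, pair-rule or segment polarity gene was among them, which leaves 0 of 9, 0 of 9 and 0 of 3. Among the dorsoventral genes 5 of 14 were bound, and among the 5 maternal regulators bcd alone was. Each gene was also assigned a source of its product, which was not measured here. By this, 5 of 9 genes listed with a maternal product were bound, and 1 of 28 with a zygotic product. Of the 3 listed with both (cad, zld and hb), 0 were bound. Whether genes listed as maternal are also transcribed in the embryo was not examined, so maternal alone and both sources are not firmly told apart. All of these are counts over few genes, and no class was tested against another.

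**Figure D1:**
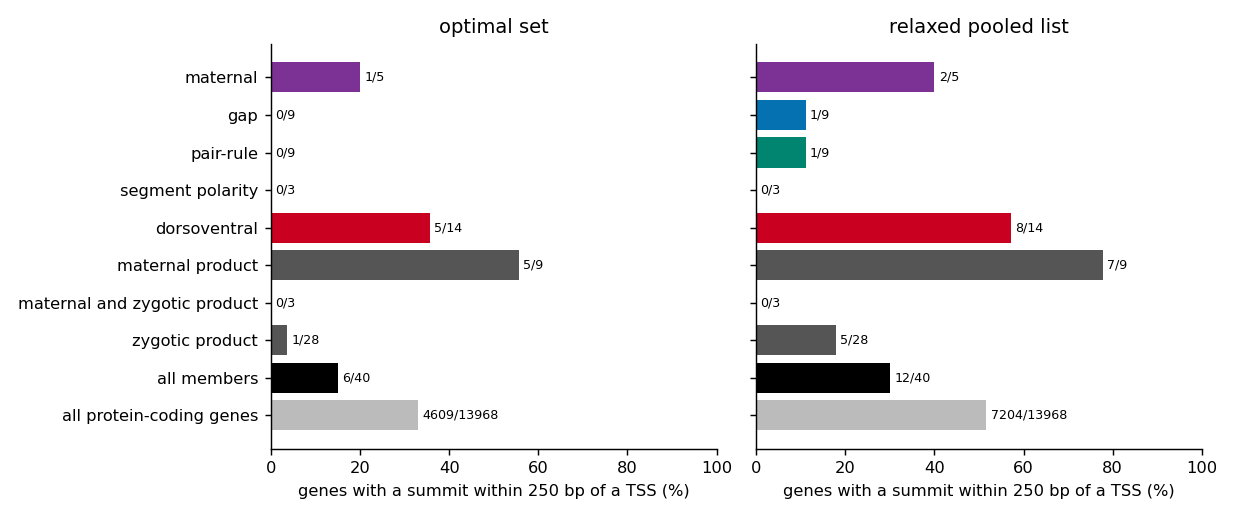
Share of genes (horizontal axis, percent) with a summit within 250 bp of a TSS, by class of patterning gene, by assigned source of the product, for all 40 members and for all protein-coding genes, in the optimal set and in the relaxed pooled list. Numbers beside the bars give genes with a summit over genes in the class. In the optimal set the maternal product bar stands at 5 of 9 and the zygotic product bar at 1 of 28, against 33.0% of all genes.

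The strongest line at a patterning gene lay at pll (FBgn0010441), the kinase that relays the Toll signal. Its pooled signal was 4154.5, which ranked 273 in the optimal set, and its signal was 2561.9 in the replicate 1 list and 1595.2 in the replicate 2 list, at ranks 267 and 286. The ranks in the pool and in both replicates were thus close together. The peak, chr3R:27252892-27253958, had its summit 246 bp upstream of the TSS of pll but 2 bp upstream of a TSS of TfIIA-L, a subunit gene of the general transcription factor TFIIA. That TSS lies 248 bp from the TSS of pll on the other strand, and a longer TfIIA-L transcript spans the stretch with an intron. Among the 40 patterning genes, pll was the only one with the TSS of another gene within 500 bp, and counting each summit for the gene with the nearest TSS alone gave this summit to TfIIA-L and left 5 bound members. The Motif 6 core printed for this stretch lies at chr3R:27253384-27253391, within 100 bp of the summit.

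The adaptor gene tub (FBgn0003882) had the clearest promoter line of its own. Its pooled signal was 2103.7, at rank 875, with 1308.4 in replicate 1 and 800.4 in replicate 2, at ranks 870 and 883. The peak, chr3R:4387367-4388028, had its summit 62 bp upstream of the single TSS, in intergenic sequence. The nearest TSS of another gene was 2624 bp away. The Motif 1 core at chr3R:4387733-4387740 lies just before the TSS, and tub was the sole patterning gene with this core from −150 to 50 bp relative to the TSS examined.

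The inhibitor gene cact (FBgn0000250) had 2 lines of the optimal set at its promoters. The stronger, chr2L:16325574-16326024, had a pooled signal of 298.4 (rank 2695), 179.5 in replicate 1 and 117.9 in replicate 2, and its summit lay in an intron, 222 bp upstream of 1 of the 4 annotated TSSs. The weaker had 91.4 in the pool (rank 4910), 69.8 in replicate 1 and 25.8 in replicate 2, at ranks 4584 and 6085, and lay 47 bp downstream of another of its TSSs, in an untranslated exon. Both replicate lists thus held both lines, and the stronger was the stronger in each. Neither of these TSSs is the single TSS per gene used for the motif counts, and with that TSS alone cact was not bound.

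The remaining bound genes had lines near the low end of the optimal set. For dl (FBgn0260632), the Rel-family factor itself, the signal was 108.3 in the pool (rank 4490), 66.6 in replicate 1 and 38.3 in replicate 2, and the summit lay 16 bp downstream of the TSS in an untranslated exon. Besides the Motif 6 core printed upstream at chr2L:17450419-17450426, dl carries this core a second time at chr2L:17450304-17450311, also on the strand of the gene and within 100 bp of the summit. For bcd (FBgn0000166), a homeodomain protein whose RNA is held at the anterior pole, the signal was 115.1 in the pool (rank 4355), 77.0 in replicate 1 and 37.2 in replicate 2, with the summit 220 bp upstream of the TSS. For pnr (FBgn0003117) it was 96.5 in the pool (rank 4777), 52.2 in replicate 1 and 42.2 in replicate 2, with the summit 37 bp downstream of 1 of its 3 TSSs. Here a Motif 1 core on the opposite strand lies at chr3R:16026133-16026140, inside the untranslated exon, in addition to the DRE printed upstream. All of these lines had the width of 524 bp shared by most of the relaxed list, and all ranked between 4355 and 4777 in the optimal set, whose last rank is 5007. In replicate 1 pnr ranked 5423, so it dropped out when the 5007 strongest lines of replicate 1 stood in for the optimal set.

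Over the 6 bound genes the median of the strongest promoter signal was 206.7, against 724.2 over the 4609 bound genes of the genome. Only pll and tub were above that median.

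**Figure D2:**
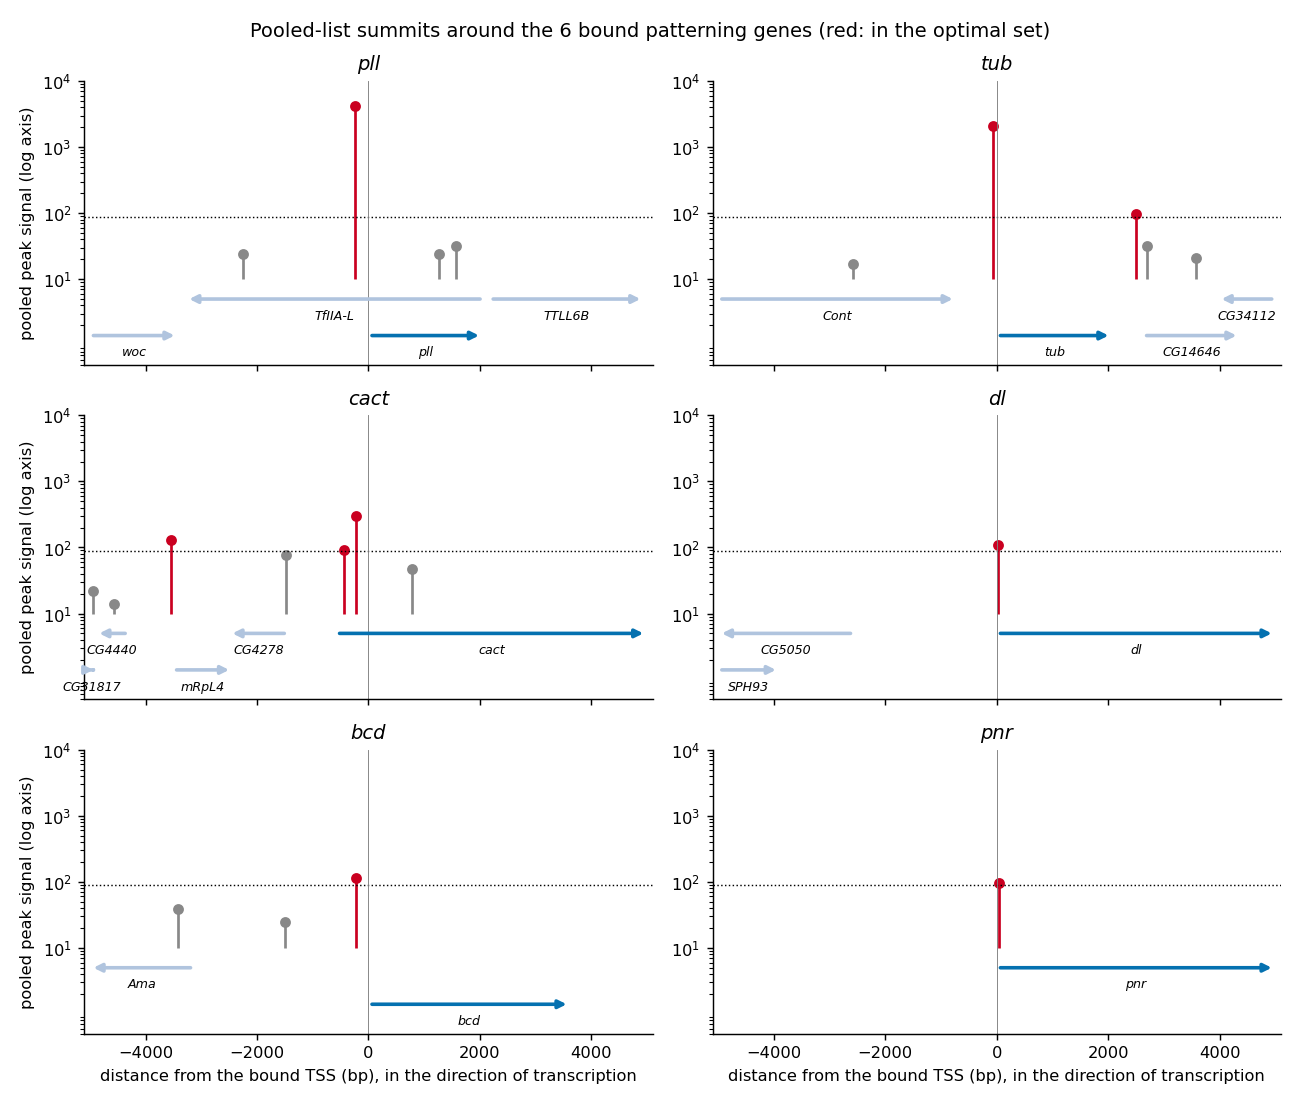
Summits of the relaxed pooled list within 5 kb of the bound TSS of pll, tub, cact, dl, bcd and pnr, with the peak signal on a log axis (vertical lines start at 10) against the distance from the TSS in bp in the direction of transcription. Red marks lines of the optimal set, grey the other lines, the dotted line the lowest optimal signal of 88.4, and arrows the protein-coding genes. The line at pll stands at 4154.5 at an internal start site of TfIIA-L and that at tub at 2103.7, with a weaker optimal line of 97.6 at CG14646 in the same panel, while those at dl, bcd and pnr end just above the dotted line.

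Other genes of the Toll pathway were set beside these. The ligand gene spz and the receptor gene Toll were not bound, and neither were gd, snk and ea, which encode the protease cascade that activates spz, nor ndl, pip and wind, which act upstream of that cascade in the egg chamber. Counted by place of action, a split made after these values were seen, 4 of 4 listed genes for the intracellular steps (tub, pll, cact and dl) were bound. The wider list added genes to the other steps but none to these, so the intracellular steps may not be fully covered. For the steps outside the cell or in the secretory pathway, with the receptor Toll placed among them, 0 of 8 were bound, against 33.0% of all genes. Of the 4, the summit at pll is nearer to TfIIA-L, cact is lost with 1 TSS per gene, and only pll and tub are among the 2504 strongest lines of the optimal set. Among those 8, pooled promoter lines were present at Toll with a signal of 15.1, at ea with 31.9, at pip with 18.2 and at snk with 14.5. These lie below the lowest optimal signal of 88.4, as the pooled promoter lines of all unbound genes do.

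Promoter lines of the relaxed lists were counted next. The pooled list had a promoter summit for 12 of 40 patterning genes (30.0%), against 7204 of all genes (51.6%). These counts include the 6 bound members and the 4609 bound genes, and the share among unbound genes alone was not taken. Both replicate lists had one for 10 of 40 (25.0%), against 6241 of all genes (44.7%), whether at the same TSS or at different ones. Besides the 6 bound genes, the pooled list held lines at dpp, h, Kr, vnd, Toll and tsl, with signals from 13.4 to 28.5 and a median of 20.0. That is near the median of 22.6 over all lines of the pooled list. The weakest bound member, pnr, had 96.5, so that no patterning gene had its strongest pooled promoter line between 28.5 and 88.4. All 6 strongest lines had the common width of 524 bp.

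Among these genes, dpp, the main BMP ligand, had 3 pooled promoter lines at separate TSSs, the strongest with 28.5 at rank 11331. In replicate 1 its strongest line had 24.4 and in replicate 2 only 6.61, at ranks 9053 and 29833, and these were at different TSSs. The pair-rule repressor gene h (hry in the annotation) had 25.7 in the pool, 23.2 in replicate 1 and 13.7 in replicate 2. The summits lay 34 and 37 bp from 1 TSS in the pool and replicate 1, and −175 bp from another TSS in replicate 2. The gap gene Kr had 21.9 in the pool, 15.2 in replicate 1 and 13.9 in replicate 2, and its summits were spread from 205 bp upstream to 158 bp downstream of its TSS. For comparison, the summits at pll lay 246 and 241 bp upstream of its TSS in replicate 1 and replicate 2, and those at tub 62 and 53 bp upstream.

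The neuroectodermal homeobox gene vnd also had a promoter line in all 3 relaxed lists, with 18.2 in the pool, 9.48 in replicate 1 and 11.9 in replicate 2. The replicate 1 line lay at a different TSS from the lines of the pool and replicate 2, so no single vnd promoter had a line in both replicates. The promoter lines of tsl and Toll were in fewer lists. The terminal system gene tsl had 13.4 in the pool and 15.1 in replicate 1, and no promoter line in replicate 2. For Toll the values were 15.1 in the pool and 8.65 in replicate 2, with none in replicate 1. Promoter lines in a single replicate list and not in the pool were found for odd, sog and zld in replicate 1 and for inv, run and spz in replicate 2. Each replicate list named 14 of 40 patterning genes at a promoter, against 7190 (51.5%) and 6993 (50.1%) of all genes.

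**Figure D3:**
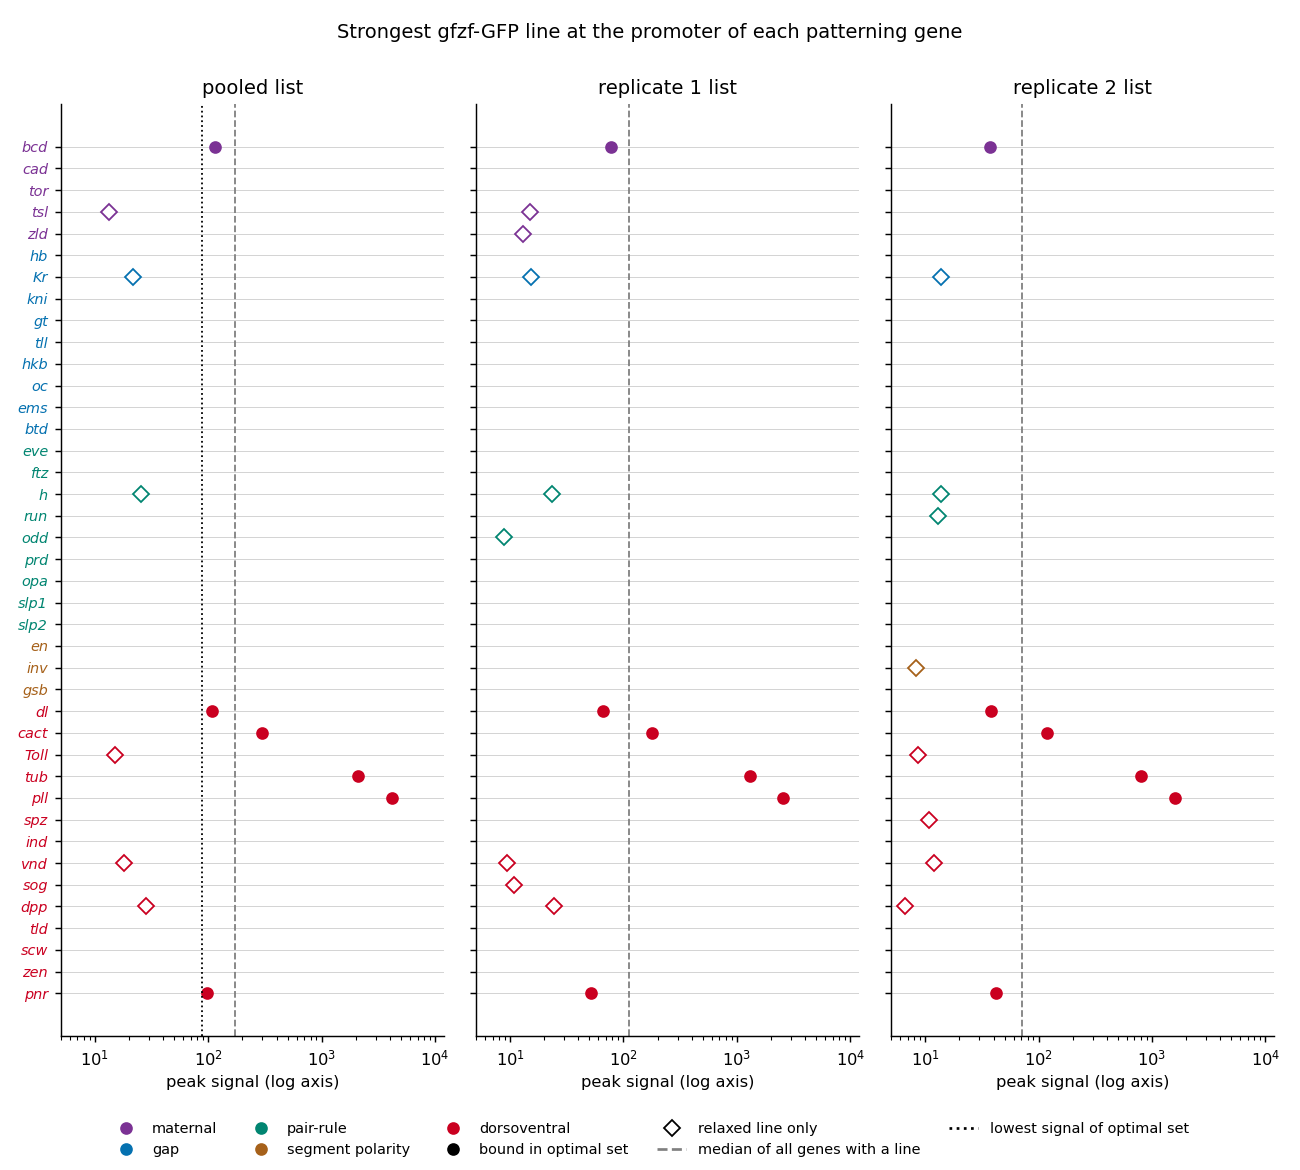
Signal of the strongest promoter line of each of the 40 patterning genes (log axis) in the pooled, replicate 1 and replicate 2 lists, with genes coloured by class; scales differ between lists. Filled circles are genes bound in the optimal set, open diamonds genes with a relaxed line only, and a gene with no symbol has no promoter line in that list. The dashed line is the median of all genes with a line, and the dotted line is the lowest optimal signal of 88.4. In the pooled panel pll, tub and cact lie right of the dashed line. All open diamonds lie left of the dotted line, as the pooled promoter lines of all unbound genes do.

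The wider surroundings were also sparse in summits. In the gene body and 5 kb on each side, 11 of 40 patterning genes (27.5%) had a summit of the optimal set, against 8427 of all genes (60.3%). In the pooled list 29 of 40 (72.5%) had a line in that window, against 11241 of all genes (80.5%). Scaled to length, the windows held 0.0213 optimal summits per kb for patterning genes and 0.0793 for all genes. For genes not bound at the promoter these densities were 0.0078 for the 34 patterning genes and 0.0421 for 9359 genes in all. The flanks can take in promoters of nearby genes, and patterning genes lay farther from these. The median distance to the nearest TSS of another gene was 10032 bp, against 1379 bp for all genes. How much of the lower density goes with this spacing was not tested. The windows of tll and zen, a gap gene and a dorsal homeobox gene, held no line of any list, and 9 others (hb, gt, btd, eve, run, opa, en, gsb and scw) held none of the pooled list.

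Of the 16 optimal summits in these windows, 7 lay at a promoter of the patterning gene itself. These include the summit at pll, which lies nearer to a TSS of TfIIA-L. Another 7 lay only within 250 bp of the TSS of another gene. The strongest of the latter kind was at Polr1H, an RNA polymerase I subunit gene, 221 bp past the end of tsl. It had a signal of 4579.2 in the pool, 2955.6 in replicate 1 and 1635.6 in replicate 2, while tsl's own promoter line had 13.4 in the pool. The summit 2245 bp past the end of cact had 1828.3 in the pool and lay 65 bp upstream of cni. Similar lines stood at Pomp near cad (316.4), asp near tld (163.5), CG12702 near zld (141.5), mRpL4 near cact (130.1) and CG14646 near tub (97.6). Thus cad, tsl, zld and tld had an optimal summit nearby and none at their own promoters.

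The other 2 summits lay within 250 bp of no TSS of a protein-coding gene. Distances to TSSs of noncoding genes were not taken. The weaker lay in an intron of cact, at chr2L:16315007, with a signal of 102.5 in the pool, 62.2 in replicate 1 and 37.8 in replicate 2. The stronger lay in intergenic sequence 4312 bp upstream of slp2, between the neighbouring forkhead genes slp1 and slp2, which share a pair-rule role. Its signal was 166.4 in the pool, 99.0 in replicate 1 and 64.3 in replicate 2, at ranks 3748 and 3658 in the replicate lists. The 101 bases around this summit are shown because they hold the Motif 1 core in 2 copies, marked by capitals, at chr2L:3832496-3832503 and chr2L:3832531-3832538.
slp2 distal summit, chr2L:3832478-3832578, plus strand: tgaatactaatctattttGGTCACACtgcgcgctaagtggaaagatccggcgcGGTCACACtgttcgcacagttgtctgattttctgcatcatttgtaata
Within 100 bp of the summit, 2 or more copies of this core were found at 36 of all 5007 optimal summits (0.719%). Among the 819 with no TSS of a protein-coding gene within 250 bp it was 5 (0.611%). At least 1 copy was found at 925 of 5007 (18.5%).

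Patterning genes were more isolated than most genes. The median distance from a TSS to the nearest TSS of another gene was 10032 bp for the 40 patterning genes and 1379 bp for all genes, and another TSS lay within 500 bp for 1 of 40 (2.5%) and for 4309 of all genes (30.8%). Among genes whose nearest other TSS was over 500 bp away, 5 of 39 patterning genes (12.8%) and 2055 of all 9659 (21.3%) were bound. Among those with another TSS between 500 and 5000 bp away it was 4 of 11 (36.4%, bcd, cact, dl and tub) against 1771 of 7445 (23.8%). Beyond 5000 bp it was 1 of 28 (3.57%, pnr) against 284 of 2214 (12.8%). How much of the difference between patterning genes and all genes goes with spacing was not tested.

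**Figure D4:**
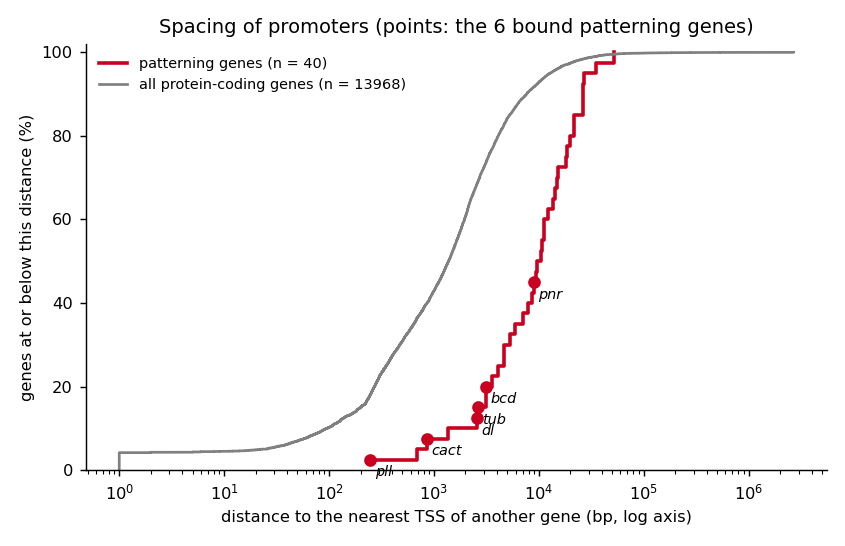
Cumulative share of genes (vertical axis, percent) by distance to the nearest TSS of another protein-coding gene in bp (log axis; distances of 0 are drawn at 1), for the 40 patterning genes in red and all protein-coding genes in grey. Points mark the 6 bound patterning genes. The red curve runs right of the grey one, with medians of 10032 and 1379 bp, and 5 of the 6 bound genes lie within 5000 bp of another TSS.

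The genes beside the patterning genes were counted as well, taken as the closest gene on each side that does not overlap the patterning gene, at any distance. Of 80 adjacent genes, counted on both sides of each, 30 (37.5%) were bound, against 9495 of 27921 (34.0%) over all genes. For the 34 unbound patterning genes it was 26 of 68 (38.2%), against 4443 of 18710 (23.7%) for all unbound genes. Examples were E(Pc) next to inv with a signal of 6237.9, Slh next to dpp with 4143.0, dia next to cad with 3612.8 and Pex19 next to prd with 3056.1. Both neighbours of eve, oc, scw, tld, tsl and cad were bound, while the promoters of these 6 genes were not. Some of these neighbours are far off: those of scw lie 112939 and 31112 bp away, and Slh lies 28374 bp from dpp.

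Sequence elements were counted at 1 TSS per gene, chosen from the annotation without regard to binding. The elements of broadly expressed promoters were searched on both strands from −150 to 50 bp relative to the TSS. The Motif 1 core was present in 1 of 40 patterning promoters (2.5%, tub) and in 6.81% of all promoters, the DRE in 0 of 40 and in 7.81%, and the Motif 6 core in 1 of 40 (2.5%, dl) and in 3.98%. None of these elements was found in the 34 unbound patterning genes. Among all unbound genes the 3 elements were rare too, at 0.588%, 4.42% and 1.19%, so that 0 of 34 is near those values. Among all bound genes the shares of the elements were 19.4%, 14.7% and 9.66%. The elements in pnr and pll lie outside these counts, since another TSS of pnr was counted and the core in pll lies farther upstream.

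Elements of regulated promoters were counted in the same way. A TATA box, sought on the sense strand from 40 to 20 bp upstream, was present in 5 of 40 patterning genes (12.5%; eve, gt, hb, slp1 and sog), against 7.19% of all genes. From −250 to 50 bp on both strands the order turned, with 22.5% of patterning genes against 45.3% of all genes. The Initiator core TCAGT, sought on the sense strand within 5 bp of the TSS, was present in 10 of 40 (25.0%), against 7.71%. The GAGA element, sought like Motif 1, was present in 6 of 40 (15.0%), against 4.74%. The heptamer CAGGTAG was present in 7 of 40 (17.5%; dpp, gt, h, hb, odd, scw and slp1), against 1.15%. None of the 6 bound patterning genes had any of these elements in the windows searched at the TSS counted. At the bound TSS of pnr, which was not the one counted, TCAGT on the sense strand lies at chr3R:16026081-16026085 and GAGAGAG on the opposite strand at chr3R:16026088-16026094. Among all bound genes their shares were 1.17%, 3.1%, 2.3% and 0.694%. The elements are matches of letters, overlaps between them were not removed, and occupancy by the factors was not measured.

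**Figure D5:**
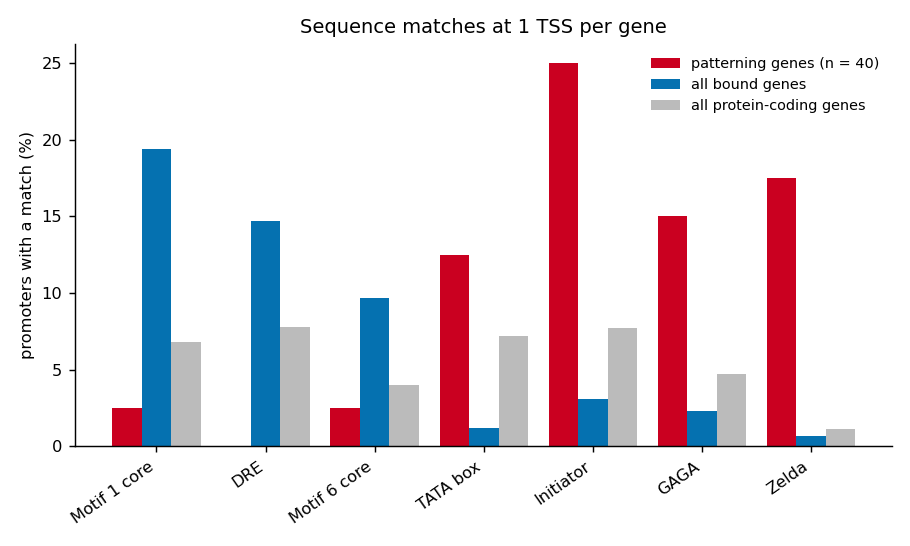
Share of promoters (vertical axis, percent, 1 TSS per gene) with a match to each element for the 40 patterning genes, all bound genes and all protein-coding genes. The bars of the patterning genes are lower than those of all genes for the Motif 1 core, DRE and Motif 6 core, and higher for the TATA box, Initiator, GAGA and Zelda (CAGGTAG) elements, with 17.5% against 1.15% for the last; for the TATA box this turns in the wider window on both strands.

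A wider list of 65 further patterning genes was read in the same way. Here 14 (21.5%) were bound, against 33.0% of all genes. Of its 11 maternal genes 7 were bound, and the strongest was cic, a repressor gene of the terminal system, with a signal of 6178.7 in the pool, 3861.0 in replicate 1 and 2335.6 in replicate 2. The others were pum (3067.1), stau (868.2), exu (95.8) and swa (2354.0), whose products act on maternal RNAs, the corepressor gene gro (236.1) and Stat92E (1119.4), a transcription factor gene of the JAK-STAT pathway. The summits at swa and exu also lay within 250 bp of a TSS of Marf and galla-1.

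Of 13 further segment polarity genes 6 were bound, against 33.0% of all genes. Of the Hedgehog pathway these were Cos2 (7872.6), smo (4206.8), fu (654.4) and ci (122.3), and of the Wingless pathway dsh (2011.2) and arm (123.0). The summits at Cos2 and smo were shared with Dhx15 and CG17078. The ligand genes wg and hh and the receptor gene ptc were not bound, and their strongest pooled promoter lines were 18.7 at wg, 36.5 at ptc and none at hh. The Wingless receptor gene fz (18.5) and the Wingless pathway gene nkd (13.5) were not bound either, nor were gsb-n and mid. Among the 6 further gap genes cnc was bound (2683.2). No gene was bound among 4 further pair-rule genes, 23 further dorsoventral genes and 8 Hox genes, although the pooled list held promoter lines for 2, 14 and 1 of them. Over the whole wider list 37 of 65 genes had a pooled promoter line, against 51.6% of all genes. The low share of pooled lines among the 40 members (30.0%) was thus not seen in the wider list.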

How the data were processed

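ChIP-seq of GFP-tagged gfzf was done in 2 biological replicates of whole embryos. The labels do not say whether these came from separate collections, so agreement between them may be technical. The authors deposited peak lists on dm6 and dm3. The dm3 lists were not used, since no annotation of that build was at hand. The deposited signal in column 7 is the peak caller's own value, and the deposited −log10 of the q-value took the single value 4.18 throughout the optimal set, so it ranked nothing. The sources used here name no aligner, peak caller or IDR settings, and the depth of sequencing is unknown. No counting error can therefore be stated. Control reads were not analysed here.

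Genes and TSSs came from Ensembl release 115, and sequences from RefSeq, both on the assembly of dm6. Of the 40 genes, 38 matched by symbol and 2 by an older symbol (h as hry, Toll as Tl). The background was every protein-coding gene on a chromosome with a pooled line. A summit within 250 bp counted for every gene with a TSS that near. Computation used Python 3.11.15, numpy 2.4.6, pandas 2.3.3, scipy 1.17.1 and matplotlib 3.10.9, and the assignment of summits was tested on simulated positions. No test was run: with 1 group and no counts, classes are described by counts beside those of all genes.

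The members, lists, elements and alternatives were chosen with earlier results of these data known. Values are given for every bound member, every unbound member with a pooled promoter line, every member with an optimal summit in its window (the strongest, and further summits chosen after their values were seen), and bound genes of the wider list. Alternatives changed the TSS distance, interval rule, signal threshold, TSS choice, replicate, flank and motif window. Leaving out lines of the commonest width and assigning summits to the nearest TSS alone were added after the data were seen.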

Additional observations from a re-analysis of the deposited data

How the results depend on the processing

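The count of 6 bound members was also 6 with a TSS distance of 500 or 1000 bp or with interval overlap, 4 at 100 bp (without bcd and pll), 4 with 1 TSS per gene (without cact and pnr), 5 with the nearest TSS alone (without pll), and 5 to 6 with either replicate left out. It was 2 (pll and tub) among the 2504 strongest lines of the optimal set, against 20.2% of all genes, and 3 (cact, pll and tub) without lines of the commonest width, against 29.6%. The maternal class then held 0 in both settings and 0 at 100 bp. Dorsoventral genes numbered 2 among the strongest lines, 3 without the commonest width and 3 with 1 TSS per gene. Genes with a maternal product numbered 3 at 100 bp, 2 among the strongest lines and 3 without the commonest width. Genes with a zygotic product numbered 0 among the strongest lines, with 1 TSS per gene and without the commonest width, and 0 to 1 with either replicate left out (0 without replicate 2, which drops pnr). Members with an optimal summit in the window numbered 20 with 10 kb flanks, against 69.6% of all genes. The Initiator share was 67.5% in the wider window on both strands, against 51.9% of all genes. The TATA box share was 22.5% there, against 45.3% of all genes, which turns the order seen in the narrow window (12.5% against 7.19%). The share of genes bound was lower for members than for all genes under each setting that has a value for all genes. Each of these changes follows from the lines, TSSs or bases a setting counts; other causes were not tested. Lines near the end of the optimal set (dl, bcd and pnr) depend most on where that set ends, and without the sequencing depth their error cannot be given. No paired analysis was possible because the 2 replicates form 1 group.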
